A study of Mus musculus with 6 samples.

Results

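The C/EBP transcription factors were followed in mouse peritoneal macrophages, phagocytes of the abdominal cavity, from the inbred strain C57BL/6. Members were the genes Cebpa, Cebpb, Cebpd, Cebpe, Cebpg and Cebpz, taken by symbol from the array's annotation. They were chosen with earlier results of these data known. Of these 6 genes, 5 had a probe assigned to a single symbol, with 1 probe each, among 19935 genes tested. Cebpz was not analysed here.

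The cells had been kept in culture in DMEM with serum and either left without treatment, given poly I:C at 2 ug/mL for 24 h, or given PAM at 1 ug/mL for 24 h. Poly I:C is a double-stranded RNA mimic that acts on Toll-like receptor 3 (TLR3), and PAM is a lipopeptide that acts on TLR2; one PAM sample is described as PAMCSK3 and the other as PAMCSK4. Each of the 3 groups held 2 arrays, none carries a genetic change in the labels, and no culture time is stated for the untreated cells. A difference from control that both ligands share can therefore not be told apart from a difference in time in culture. Whether a group's samples were taken from different animals or dishes is not stated, so the p-values rest on a spread between samples that may be purely technical. The study asked for genes higher after TLR3 activation and lower after TLR2 activation than in control cells.

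The C/EBP proteins of the 5 measured genes bind DNA as dimers through a basic region and a leucine zipper. C/EBPα sets up the granulocyte and macrophage programmes of the bone marrow, and C/EBPβ and C/EBPδ take part in acute-phase and inflammatory transcription in mature macrophages, where C/EBPβ also acts at genes of alternative activation. C/EBPε acts late in granulocyte maturation, and C/EBPγ, which has no activation domain of its own, pairs with other leucine zipper proteins such as ATF4.

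The deposited values are on a log scale, taken here as log2, and had been centred probe by probe on the median of the 6 arrays. A value of 0 is therefore a gene's own middle level, and genes cannot be ranked by level. From the steps in which the numbers are stored it was inferred which genes had been at 8 or more on every array before centring, a high signal. This reading is indirect, and a gene of lower signal can meet the criterion by chance. Among ribosomal protein genes 94.1% of 204 probes met this, and among olfactory receptor genes 2.74% of 1023 probes. It held for Cebpa, Cebpb and Cebpg, and not for Cebpd or Cebpe. Of 10 macrophage markers, 9 met it, among them Adgre1 and Csf1r, and Gata6, the factor of resident peritoneal macrophages, did not. Differences are given as log2 value ± SE with 2 arrays per group, and adjusted p-values come from limma with Benjamini-Hochberg adjustment over all genes at a threshold of 0.05.

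Sequence upstream of the start was at hand in RefSeq (GRCm38.p6) for 3 of the 6 members, and the 250 bases before each start are printed for all 3. Whether a motif in these windows bears on the changes of its gene was not tested. Capitals mark matches to any of 7 motifs searched on both strands: TTGCNNAA for C/EBP, TGATGNAA for the joint ATF4-C/EBP element, the core TGACG of the cyclic AMP response element, TTCNNNGAA for STAT dimers, the interferon-stimulated response element (ISRE), the kappaB motif, and CCAAT. Some of these can overlap one another. The Cebpb window is chr2:167688665-167688914 on the + strand, the Cebpa window chr7:35119043-35119292 on the + strand, and the Cebpg window chr7:35056567-35056816 on the - strand.
Cebpb: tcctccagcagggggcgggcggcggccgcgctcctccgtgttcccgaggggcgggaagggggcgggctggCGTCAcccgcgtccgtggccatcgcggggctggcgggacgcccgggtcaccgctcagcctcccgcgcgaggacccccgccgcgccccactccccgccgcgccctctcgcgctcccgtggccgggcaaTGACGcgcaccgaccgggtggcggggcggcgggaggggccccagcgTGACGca
Cebpa: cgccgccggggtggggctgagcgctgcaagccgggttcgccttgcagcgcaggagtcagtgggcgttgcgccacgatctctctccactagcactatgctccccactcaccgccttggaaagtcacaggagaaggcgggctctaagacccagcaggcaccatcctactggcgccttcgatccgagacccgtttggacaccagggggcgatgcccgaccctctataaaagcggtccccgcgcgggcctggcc
Cebpg: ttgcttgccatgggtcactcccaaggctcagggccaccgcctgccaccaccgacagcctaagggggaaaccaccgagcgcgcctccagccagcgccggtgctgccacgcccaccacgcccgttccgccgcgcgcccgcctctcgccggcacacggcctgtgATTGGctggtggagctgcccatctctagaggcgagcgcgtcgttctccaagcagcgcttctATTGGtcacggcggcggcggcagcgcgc
Cebpb held 3 matches to TGACG, at -53 to -49, at -7 to -3 and, on the other strand, at -180 to -176 relative to the start, and no match to the other motifs. At least 1 such match was present in 21.4% of 19175 windows of the tested genes. Cebpa held no match to any of the 7 motifs in this window. Cebpg held 2 matches to CCAAT, both on the other strand, a motif present in 34.5% of windows. The Cebpb window was the richest of the 3 in G and C at 81.6%, against 66.4% for Cebpa, 70.8% for Cebpg and a median of 56.8% over all windows.

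Cebpb, the activator of acute-phase and inflammatory genes, rose with both ligands, and more with PAM. Its centred values were -0.62 and -0.62 on the control arrays, -0.06 and 0.06 with poly I:C, and 0.66 and 0.60 with PAM. The 3 groups did not overlap, and the PAM arrays lay highest. Cebpb was 1.54-fold higher with poly I:C than in control cells (0.62 ± 0.07, adjusted p = 0.000118, limma) and 2.38-fold higher with PAM (1.25 ± 0.07, adjusted p = 1.5e-06, limma). The difference between the ligands was itself past the threshold (-0.63 ± 0.07 for poly I:C minus PAM, adjusted p = 0.000113). The PAM difference was larger in size than that of 97.1% of all genes tested. One probe reports the transcript only and does not separate the long and short proteins that Cebpb is known to make. In bulk RNA of this kind, a change in the share of a cell type and a change in RNA per cell cannot be told apart.

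Cebpa, the factor of granulocyte and macrophage commitment, fell with both ligands. It stood at 0.77 and 0.93 on the control arrays, at 0.03 and -0.08 with poly I:C, and at -0.09 and -0.03 with PAM. Both control arrays lay above all treated arrays, and the poly I:C and PAM arrays overlapped. Cebpa fell to 54.5% of the control level with poly I:C (-0.88 ± 0.08, adjusted p = 2.97e-05, limma) and to 53.2% with PAM (-0.91 ± 0.08, adjusted p = 2.72e-05, limma). These differences were larger in size than those of 94.1% and 95.2% of genes. Between the ligands the difference was 0.04 ± 0.08, with a 95% interval from -0.14 to 0.21, and did not pass (adjusted p = 0.822).

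Cebpd, which encodes an acute-phase factor related to C/EBPβ, moved in opposite directions with the ligands. Its values were -0.09 and 0.09 in control cells, -0.41 and -0.27 with poly I:C, and 0.74 and 0.53 with PAM. The groups did not overlap, with poly I:C lowest and PAM highest. Cebpd rose 1.56-fold with PAM (0.64 ± 0.10, adjusted p = 0.00106, limma) and its poly I:C level was 1.97-fold below its PAM level (-0.98 ± 0.10, adjusted p = 5.61e-05). Its decrease with poly I:C against control was smaller (-0.34 ± 0.10, adjusted p = 0.0253). That call ended without control replicate 2 (-0.25, adjusted p = 0.12), without poly I:C replicate 1 (-0.27, adjusted p = 0.172) and without poly I:C replicate 2 (-0.41, adjusted p = 0.0531). The study's stated search was for the reverse pattern; of all genes, 1.88% were called lower with poly I:C and higher with PAM, and 1.35% higher with poly I:C and lower with PAM.

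**Figure D1:**
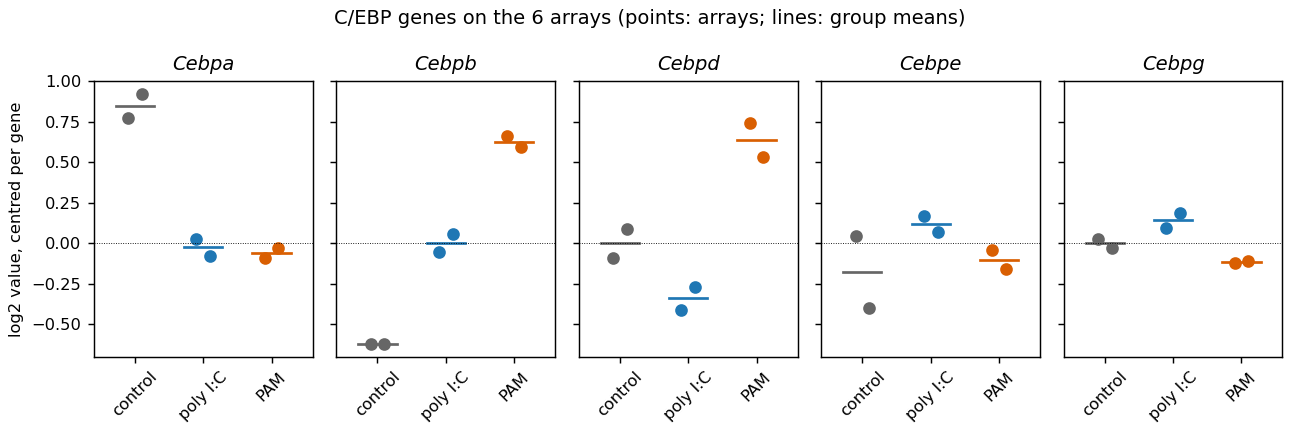
Centred log2 values (vertical axis) of the 5 measured C/EBP genes in control, poly I:C and PAM cells; each point is 1 array and each line a group mean. Cebpa is highest in control cells (0.77 and 0.93), Cebpb climbs from control through poly I:C to PAM, and Cebpd is lowest with poly I:C and highest with PAM.

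Cebpg, the partner without an activation domain, passed only in the comparison between the ligands. It stood at 0.03 and -0.03 in control cells, at 0.09 and 0.19 with poly I:C, and at -0.12 and -0.11 with PAM. The groups did not overlap, but the spans were narrow. Cebpg differed from control by 0.14 ± 0.07 with poly I:C (adjusted p = 0.164, limma) and by -0.12 ± 0.07 with PAM (adjusted p = 0.281), neither past the threshold. Poly I:C and PAM arrays differed by 0.26 ± 0.07, which is 1.20-fold (adjusted p = 0.0178). This call ended without poly I:C replicate 2 (adjusted p = 0.126), without PAM replicate 1 (0.0976) and without PAM replicate 2 (0.0818). In the RefSeq gene table Cebpg and Cebpa lie near each other on chromosome 7, with the predicted gene Gm45095 between them. Cebpa fell with both ligands and Cebpg did not pass against control with either.

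Cebpe, the granulocyte maturation factor, did not pass in any of the 3 comparisons by limma. Its control arrays stood apart from each other, at 0.04 and -0.40, the widest gap within a group among the 5 members (0.44). The poly I:C arrays were at 0.17 and 0.07 and the PAM arrays at -0.04 and -0.16. Both poly I:C arrays lay above the control arrays by a narrow margin, and the PAM arrays lay within the control span. Cebpe differed by 0.30 ± 0.13 with poly I:C (adjusted p = 0.124), by 0.08 ± 0.13 with PAM (adjusted p = 0.764) and by 0.22 ± 0.13 between the ligands (adjusted p = 0.276). The interval of the PAM difference ran from -0.22 to 0.37. The first of these values rested on the control array used: without control replicate 1 it was 0.52 (adjusted p = 0.00151) and without control replicate 2 it was 0.08. With PAM the same steps gave 0.30 (adjusted p = 0.0346) and -0.14, and leaving out either control array put the difference between the ligands at an adjusted p of 0.044 with its value of 0.22.

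By count, 1 of 5 members was called higher and 2 lower with poly I:C, against 12.1% and 18.2% of all genes. With PAM 2 were higher and 1 lower, against 11.0% and 14.0%. Between the ligands 1 was higher and 2 lower with poly I:C, against 12.9% and 15.8%. In either direction 3 of 5 members passed in each comparison, where 30.4% of genes passed with poly I:C, 25.0% with PAM and 28.7% between the ligands. Cebpb with PAM was the 1 call of at least 2-fold among the members, where 4.2% of genes reached that with PAM; no member did with poly I:C or between the ligands, against 4.82% and 4.97% of genes. Cebpb was called higher with both ligands, as were 4.99% of genes, and Cebpa lower with both, as were 8.47%. The 2 ligand comparisons share their control arrays.

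**Figure D2:**
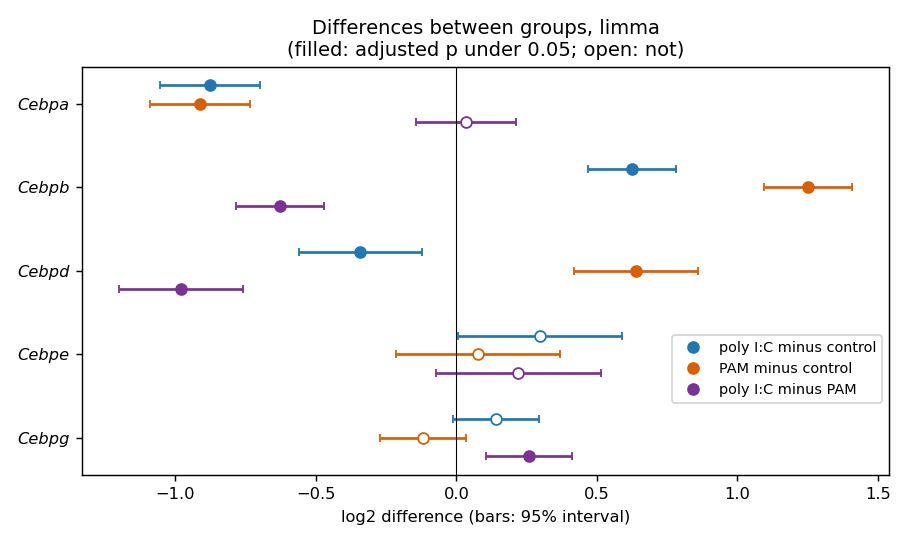
Log2 differences (horizontal axis) of each C/EBP gene for poly I:C minus control, PAM minus control and poly I:C minus PAM, with 95% intervals from limma; filled points passed an adjusted p of 0.05 and open points did not. The interval of Cebpb with PAM runs from 1.10 to 1.41, and those of Cebpa lie below 0 with both ligands.

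The opposite moves of Cebpb and Cebpa shifted their balance within each array. The Cebpb value minus the Cebpa value was -1.40 and -1.55 on the control arrays, -0.08 and 0.14 with poly I:C, and 0.75 and 0.63 with PAM. The 3 groups did not overlap. The ratio of Cebpb to Cebpa shifted 2.83-fold with poly I:C and 4.48-fold with PAM, each relative to control. For Cebpd against Cebpa the shifts were 1.45-fold and 2.93-fold, and for Cebpb against Cebpd 1.95-fold and 1.53-fold. The exact two-sided permutation p was 0.333 for each of these, the smallest that 2 arrays against 2 allow. A ratio of this kind restates the differences of its 2 genes and is not separate evidence. It shows unequal change and says nothing of which transcript was more abundant.

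**Figure D3:**
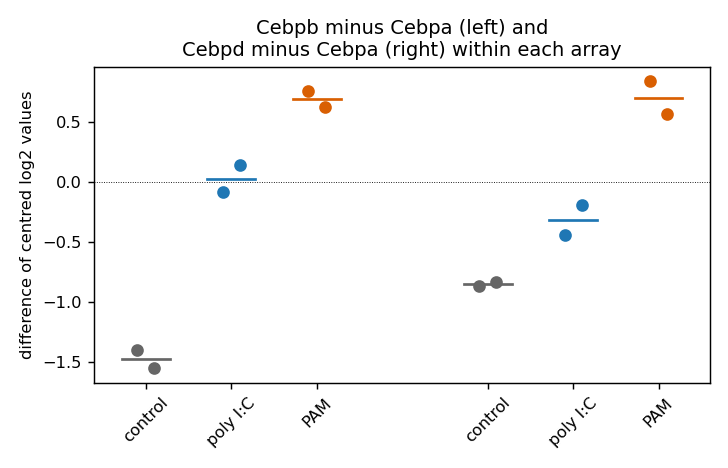
Difference between the centred log2 values of Cebpb and Cebpa (left) and of Cebpd and Cebpa (right) on each of the 6 arrays; points are arrays and lines group means. The Cebpb difference runs from -1.47 on average in control cells to 0.03 with poly I:C and 0.69 with PAM.

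The genes whose patterns lay nearest to each member called in any comparison, which leaves out Cebpe, were taken by the smallest root mean square difference over the 6 arrays. For Cebpb they were Mapkapk2, a kinase gene of the p38 pathway, at 0.029, then Pla2g4a (0.054), which encodes cytosolic phospholipase A2, Slco4a1, Sgms2 and Thbs1 (0.065). Mapkapk2 rose by 0.65 with poly I:C and 1.26 with PAM. For Cebpa the nearest was the phosphatase gene Dusp3 (0.036), followed by Fat3, Ttyh3, Nipal3 and Cdk20 (0.056). Dusp3 differed from control by -0.92 with poly I:C and -0.93 with PAM. For Cebpd the nearest were Ahsa2 (0.061), Hsd17b12, Galnt10, the cation channel gene Trpm4 and Marchf1 (0.088). For Cebpg, whose whole span was small, they were Rbm22 (0.024), Cnmd, the olfactory receptor genes Olfr1009 and Olfr148, and Fcmr (0.031). Genes taken in this way had to differ much as their member did, so their differences are not separate evidence. Whether any of them is linked to a C/EBP factor was not tested.

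Dimer partners and regulators of C/EBP factors moved both ways. Of 23 genes, 9 rose and 4 fell with poly I:C, where 12.1% of all genes rose and 18.2% fell. With PAM 7 rose and 5 fell, where 11.0% of all genes rose and 14.0% fell. The list median was -0.02 and -0.01, against 0.01 and 0.00 over all genes. Ddit3, which encodes the C/EBP partner CHOP, stood at -0.14 and 0.14 in control cells, at 2.11 and 1.99 with poly I:C and at -0.16 and -0.22 with PAM. Both poly I:C arrays were far above the others. Ddit3 rose 4.14-fold with poly I:C (2.05 ± 0.10, adjusted p = 4.26e-07, limma), while its difference with PAM was -0.19 ± 0.10 (adjusted p = 0.216), and the ligands differed by 2.24 ± 0.10 (adjusted p = 2.41e-07).

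Atf4, the stress factor that pairs with C/EBPγ, rose with both ligands. Its values were -0.60 and -0.43 in control cells, 0.22 and 0.24 with poly I:C and 0.01 and -0.01 with PAM, without overlap. Atf4 rose 1.67-fold with poly I:C (adjusted p = 6.19e-05, limma) and 1.43-fold with PAM (adjusted p = 0.000802). Trib3, a pseudokinase gene downstream of ATF4 and CHOP, rose by 2.15 with poly I:C and 1.01 with PAM. Trib1, whose product directs C/EBPα to degradation, fell with poly I:C (-0.41 ± 0.07, adjusted p = 0.00216) and differed by 0.07 ± 0.07 with PAM (adjusted p = 0.579). Batf2, a leucine zipper gene of the interferon response, rose by 2.73 with poly I:C and 0.70 with PAM, and Batf by 0.32 and 1.29. Atf3 fell by 1.25 on the log2 scale with PAM and differed by -0.17 with poly I:C without passing.

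Inflammatory and acute-phase genes known as C/EBP targets rose with PAM in 22 of 26 cases, with 0 called lower by limma (0 also at an unadjusted p under 0.05). Of all genes, 11.0% were called higher and 14.0% lower with PAM. The list median was 2.11, against 0.00 over all genes. With poly I:C 12 of the 26 rose and 2 fell, with a median of 0.31, where 12.1% of all genes rose and 18.2% fell. Between the ligands 19 were lower and 3 higher with poly I:C, the 3 being Nos2, Ccl2 and Il1rn. In that comparison 15.8% of all genes were lower and 12.9% higher. The largest increases with PAM were Il1b (6.97 ± 0.08), Cxcl2 (6.70 ± 0.17) and Lcn2, the siderophore-binding protein gene (5.93 ± 0.06). The same 3 rose by 0.32, 0.74 and 0.54 with poly I:C. With poly I:C the largest were Nos2 (4.40 ± 0.10), the acute-phase gene Orm1 (3.63 ± 0.08) and the prostaglandin E synthase gene Ptges (3.51 ± 0.12), which rose by 1.14, 4.22 and 4.78 with PAM. These genes were compiled as textbook targets. Like all lists here, this one was chosen with earlier results of these data known. Whether a C/EBP factor acted on its genes was not tested.

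**Figure D4:**
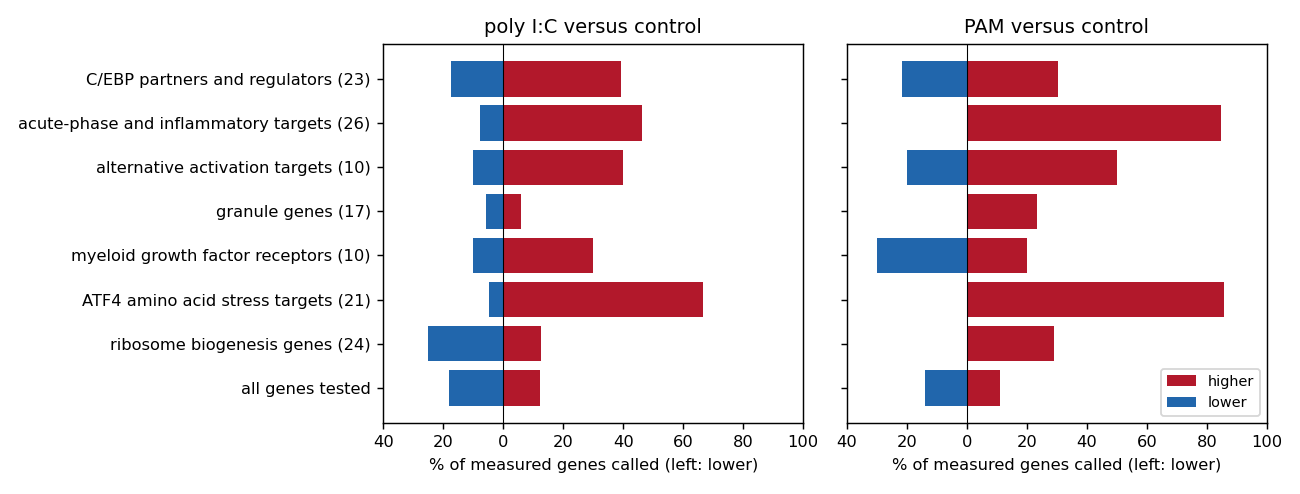
Share of the measured genes of each list (list size in brackets) that was called higher (right, red) or lower (left, blue) with poly I:C and with PAM by limma, with all 19935 genes in the last bar. With PAM, 22 of 26 acute-phase and inflammatory genes and 18 of 21 ATF4 stress genes were higher, against 11.0% of all genes.

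Of the 26 inflammatory genes, 18 had an upstream window, and 9 of these held the C/EBP motif TTGCNNAA, against 10.0% of the 15612 tested genes with a window. The list was compiled from genes known for C/EBP regulation, so this share is a description of the list. All 9 sites are shown with their flanks because they are the sequences that a C/EBP dimer could read, with the motif in capitals, on the strand that carries it.
Il6 at chr5:30012976-30013003: cttattaagaTTGCACAAtgtgacgtcg
Ptgs2 at chr1:150099952-150099979: gctgcggttcTTGCGCAActcactgaag
Lcn2 at chr2:32387938-32387965: gcccttcctgTTGCTCAAccttgcacag
Saa3 at chr7:46715758-46715785: ctgtttgatcTTGCATAAtcccacttac
Cp at chr3:19957169-19957196: caatttaatgTTGCAAAAgagtaactaa
Csf2 at chr11:54250027-54250054: taggtagagcTTGCCCAAaggcctccag
Saa1 at chr7:46743145-46743172: tgtgctcccaTTGCACAAtgagggagaa
Saa2 at chr7:46751640-46751667: tgtgctcccaTTGCACAAtgagggaaaa
Orm2 at chr4:63362319-63362346: agagaacattTTGCGCAAgacatttccc
The sites of Ptgs2, Saa3, Saa2 and Orm2 lie on the + strand and the others on the - strand of GRCm38.p6. Genes with a site did not all move, and increases were not particular to genes with a site. Over the whole list 22 of 26 genes rose with PAM and 12 of 26 with poly I:C. With PAM, Lcn2, Ptgs2 (5.06), Il6 (4.43), Saa3 (1.98), Cp (1.89) and Csf2 (0.32) rose. Saa1 (-0.11), Saa2 (0.08) and Orm2 (0.12), acute-phase genes best known from liver, did not pass, although Saa1 and Saa2 share the same motif letters with Il6. Saa1 and Saa2 are near-identical copies, and their probes may share signal. With poly I:C, Ptgs2 (1.83), Saa3 (0.72) and Lcn2 rose and the other 6 did not pass, with Il6 at 0.33 (adjusted p = 0.0559).

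Amino acid stress genes, targets of ATF4 and its C/EBP partners, rose with both ligands. Of 21 measured, 14 rose and 1 fell with poly I:C (median 0.67), where 12.1% of all genes rose and 18.2% fell. With PAM 18 rose (median 0.45), and limma called 0 lower, and 0 at an unadjusted p under 0.05. Of all genes 11.0% rose and 14.0% fell with PAM. Asns, the asparagine synthetase gene, rose by 1.69 ± 0.07 with poly I:C and by 1.70 ± 0.07 with PAM. Nupr1, a stress-induced chromatin protein gene, rose by 2.34 and 1.42. Slc7a11, which encodes the cystine transporter, rose by 1.39 ± 0.09 and 5.14 ± 0.09, and the ligands differed (-3.76 ± 0.09 for poly I:C minus PAM, adjusted p = 1e-08, limma). Gclm, a glutathione synthesis gene, was the member that fell with poly I:C (-0.64) and rose with PAM (1.67).

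Of 16 such genes with an upstream window, 6 (37.5%) held the joint element TGATGNAA, against 3.15% of tested genes. This list too was compiled from known targets. The 7 sites, 2 of them in Slc7a11, are shown because this element joins a C/EBP and an ATF motif.
Asns at chr6:7693215-7693242: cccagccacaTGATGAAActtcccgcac
Nupr1 at chr7:126625563-126625590: aagccctgtcTGATGCAAtctggccctt
Slc7a11, first site, at chr3:50443662-50443689: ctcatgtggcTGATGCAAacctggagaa
Slc7a11, other site, at chr3:50443643-50443670: ggctgcatgaTGATGCAAattctccagg
Chac1 at chr2:119351039-119351066: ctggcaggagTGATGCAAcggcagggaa
Vldlr at chr19:27216810-27216837: ctaggagcgcTGATGCAActattgctgc
Gars at chr6:55037961-55037988: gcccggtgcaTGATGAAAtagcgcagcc
The Nupr1 site and the other site of Slc7a11 lie on the + strand and the rest on the - strand of GRCm38.p6. These 6 genes rose with both ligands: beside Asns, Nupr1 and Slc7a11, Chac1 by 0.65 and 0.69, Vldlr by 0.38 and 0.41, and Gars by 0.49 and 0.44 with poly I:C and PAM. The 2 Slc7a11 windows overlap in part. Among the other lists the same element was found upstream of Atf3, which fell with PAM (-1.25) and did not pass with poly I:C (-0.17), and of Il12b, which rose with PAM (0.81) and did not pass with poly I:C (0.11), so genes with the element did not all move one way.

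**Figure D5:**
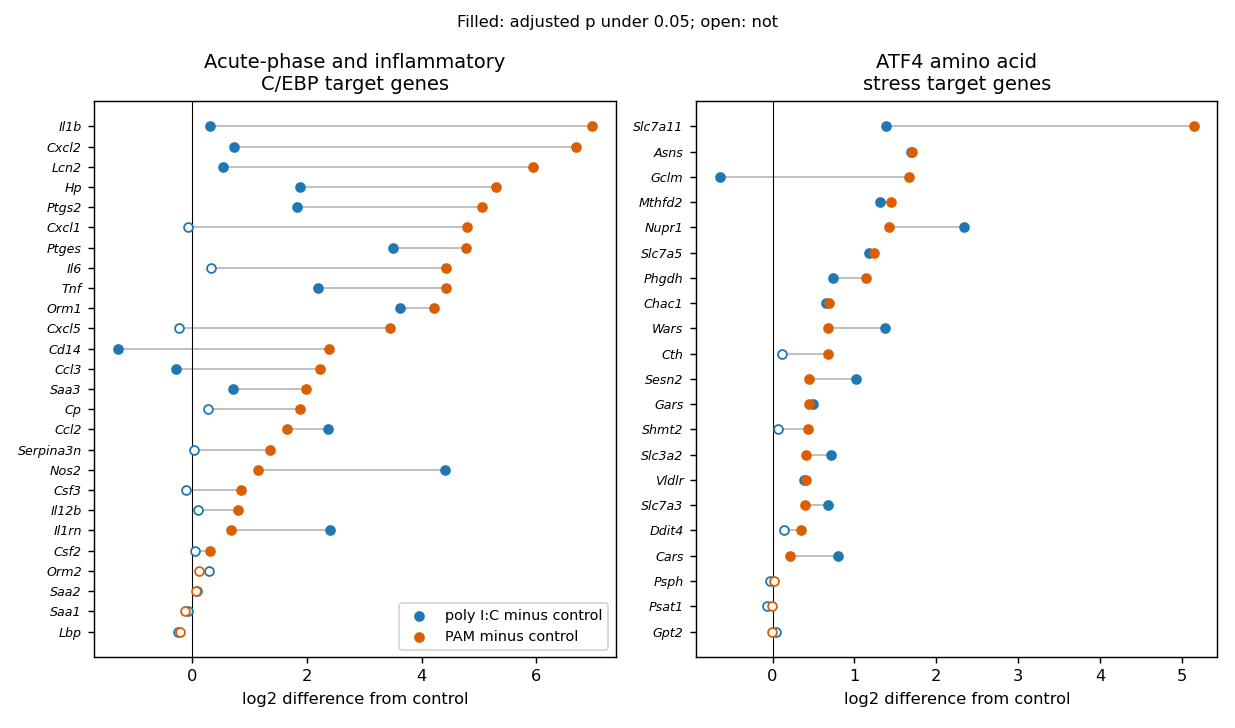
Log2 differences from control (horizontal axis) with poly I:C and with PAM for the 26 inflammatory and acute-phase genes (left) and the 21 ATF4 stress genes (right); filled points passed an adjusted p of 0.05 by limma, open points did not, and grey lines join the 2 values of a gene. The pairs are far apart for Il1b (0.32 and 6.97) and close for Asns (1.69 and 1.70).

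Genes of alternative activation, where C/EBPβ is known to act, were called in both directions. Of 10, 4 rose and 1 fell with poly I:C, and 5 rose and 2 fell with PAM, against 30.4% and 25.0% of all genes called in either direction. Mrc1, the mannose receptor gene, fell with both (-3.27 and -2.57), Il13ra1 rose by 1.84 and 0.70, and Il4ra by 0.76 and 1.13. The scavenger receptor gene Marco rose by 4.23 with PAM and 0.65 with poly I:C. Arg1, which encodes arginase, was higher with PAM by 1.19 ± 0.15 and differed by -0.37 ± 0.15 with poly I:C without passing (adjusted p = 0.0967).

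Granule genes form the programme in which C/EBPε acts. Of 17, 1 rose and 1 fell with poly I:C, where 30.4% of all genes were called. With PAM 4 rose and 0 were called lower by limma, adjusted or not. Of all genes 11.0% rose and 14.0% fell with PAM. Of 16 granule genes with an upstream window, 5 (31.2%) held TTGCNNAA, against 10.0% of tested genes. The list was chosen for its tie to C/EBPε, so this share is a description of the list. The 5 were Ltf, Ngp, Mmp8, S100a9 and Retnlg, and of these Mmp8 was the 1 gene called. Mmp9 rose by 0.49 and 3.34, and S100a8 rose by 2.04 with PAM and differed by -0.29 with poly I:C. Mmp8 fell with poly I:C (-1.12 ± 0.08) and rose with PAM (1.5 ± 0.08). Neutrophil markers overlap with this list. Of 14, 1 rose and 2 fell with poly I:C, where 30.4% of all genes were called. With PAM 3 rose and 2 fell, where 25.0% of all genes were called. The mean of the markers was 0.04 and -0.06 in control cells, -0.01 and -0.05 with poly I:C, and 0.24 and 0.22 with PAM. The median difference over the 14 markers was 0.05 with poly I:C and 0.00 with PAM, so the higher PAM mean rests on a few genes, among them S100a8 and Mmp8. Their part in the PAM differences of Cebpb and Cebpd was not tested. Only Mmp8, Padi4 and Csf3r of the 14 were read as at 8 or above on all arrays, and Ly6g, S100a9, Elane and Mpo were not.

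Growth factor receptor genes, several of them known targets of C/EBPα, were called in both directions. Of 10, 3 rose and 1 fell with poly I:C, and 2 rose and 3 fell with PAM, against 30.4% and 25.0% of all genes called in either direction. Il6st, the shared receptor chain of the interleukin 6 family, fell by 0.80 and 1.25 on the log2 scale. Csf1r rose with PAM (0.74) and differed by -0.17 with poly I:C without passing, and Il6ra fell with PAM (-0.92). Csf3r rose by 0.72 and Csf2rb2 by 0.46 with poly I:C. Ribosome biogenesis genes, listed because the Cebpz protein belongs to this machinery, were called 3 higher and 6 lower of 24 with poly I:C, with Rrp1b at -0.57, Polr1b at -0.42 and Wdr12 at -0.34, counts near the 12.1% and 18.2% of all genes. With PAM 7 rose, against 11.0% of all genes, with 0 called lower by limma, adjusted or not, among them Rrs1 (0.80), Bop1 (0.41) and Ebna1bp2 (0.35). Between the ligands 14 were lower with poly I:C, against 15.8% of all genes, and 0 higher by limma, adjusted or not.

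Markers of other cells were read against the 30.4% of all genes called with poly I:C and the 25.0% called with PAM. Of 8 mast cell and basophil markers 0 were called with either ligand by limma, where 1 was lower at an unadjusted p under 0.05 with each. Of 7 T and NK cell markers 0 were called, where 1 was higher at an unadjusted p under 0.05 with each. Of 6 eosinophil markers 1, Siglecf, was lower with both. Of 7 B cell markers 2 rose and 1 fell with poly I:C, and 3 rose and 1 fell with PAM, more than the share of all genes. Only Cd22, the marker that fell, was read as at 8 or above on all arrays. The B cell mean was 0.01 and -0.07 in control cells, 0.03 and 0.00 with poly I:C, and -0.01 and 0.14 with PAM. Of 9 mesothelial cell and fibroblast markers 3 fell with poly I:C, and 1 rose and 1 fell with PAM. Of these 9, 5 were read as at 8 or above on all arrays: Col1a1, Col1a2, Col3a1, Dcn and Pdgfra. The list mean was 0.23 and -0.07 in control cells, -0.17 and -0.11 with poly I:C, and 0.10 and 0.11 with PAM. The part of such cells in the differences of the C/EBP genes was not tested. Of the 10 macrophage markers 3 rose and 4 fell with each ligand.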

How the data were processed

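Total RNA was labelled as biotinylated cRNA for Affymetrix arrays, per the labels' protocols. The authors deposited a table of 28815 probes on 6 arrays on a log scale, taken as log2 values. The sources used here do not give the summarization, background correction, normalization or log base. Each probe's median is subtracted (largest remaining median 5e-07), and array medians lie between -0.00491 and 0.00721. Per the platform annotation 21780 probes have 1 symbol, 1605 several and 5430 none, and probes of a gene were averaged.

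One mean per group was fitted over all 6 arrays with limma 3.58.1 in R 4.3.3 (eBayes without trend, 3 residual and 5.68 prior degrees of freedom). The median SE of a difference was 0.07, a precision limited by the number of arrays. The fit was tested on simulated data. Members and lists were chosen with earlier results of these data known. Named genes were the members, Ddit3, Trib1 and Atf4, up to 3 called genes with the largest change per list and ligand, and the 5 nearest genes per called member. Genes whose upstream sites are printed, and single genes named beside small counts, were chosen after their values were seen. Replicate numbers do not mark a shared animal or day in the labels. Promoters were searched with Python 3.11.15.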

Additional observations from a re-analysis of the deposited data

How the results depend on the processing

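Over the 5 members and 3 comparisons, 182 single values kept their direction and their side of the threshold under the alternatives, 14 lost their call, 6 gained one and 2 changed sign. Cebpb with PAM kept its call in all 14 alternatives (1.22 to 1.28); Cebpa with either ligand, Cebpb with poly I:C, Cebpd with PAM and both Cebpb and Cebpd between the ligands lost theirs only where a 2-fold change was also asked. The changes of sign were in values that had not passed: Cebpa between the ligands ran from -0.02 (without poly I:C replicate 1) to 0.09, and Cebpe with PAM from -0.14 (without control replicate 2) to 0.30. The poly I:C decrease of Cebpd ranged from -0.43 to -0.25 and the Cebpg difference between the ligands from 0.21 to 0.31 without single arrays.

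With a 2-fold minimum, limma called 0 members with poly I:C, 1 with PAM and 0 between the ligands. These counts were the same at an unadjusted p under 0.05 with that minimum. Of 131 pathway genes 22, 36 and 30 were called with it, in place of 62, 75 and 80. Of all genes 4.82%, 4.2% and 4.97% were called with it, in place of 30.4%, 25.0% and 28.7%. Restriction to genes read as at 8 or above on all arrays left 62 pathway genes and 3 members. Of these, 47 pathway genes were called with poly I:C, 45 with PAM and 47 between the ligands, and 2 members in each comparison. The share of all genes called was not computed under this restriction or with the replicate block below. With the replicate number as a block, 4, 3 and 3 members and 65, 74 and 79 pathway genes were called, the added member being Cebpe with poly I:C (adjusted p = 0.0446). Deviations of same-numbered arrays correlated over genes at -0.07, 0.15 and -0.01 between pairs of groups. The numbers were not taken as pairs in the main fit because the labels do not tie them to a shared animal or day. Signal over background is unknown, and with 2 arrays per group small differences such as those of Cebpg and Cebpe are at the edge of what can be resolved.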
